A study of Homo sapiens with 4 samples.

Results

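The positions described here are the cytidines on human chromosome 19 that were listed in at least 1 of the 2 deposited tables and lie in a gene whose name does not begin with ZNF. There were 1733 of them among the 17862 positions of the series (9.70%), in 463 genes. Merging the lines of each table by position identifier and keeping chromosome 19 left 31 positions in ZNF genes alone, which were set aside. The tables were made from LX-2 cells, an immortalised human hepatic stellate cell line with the genotype label WT, of which 2 libraries came from cells stimulated with recombinant human TGF-β1 (5 ng/ml, 24 h) and 2 from cells left untreated. The assay, NaBH4-sequencing of polyadenylated RNA, relies on sodium borohydride to reduce N4-acetylcytidine (ac4C), after which reverse transcriptase can record the base as T. None of the 4 libraries is labelled as made without NaBH4, so listing alone does not identify a cytidine as acetylated. Each table gives 1 value per position for its group, the mismatch difference, printed here in percent, and a p-value of the authors. No value per library is given, so no value has a replicate error, no test between the groups was possible, and every comparison is a description of 2 lists. Listing chose the members, and the chromosome was picked with earlier results of these data known.

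N4-acetylcytidine is the acetylated form of cytidine that the acetyltransferase NAT10 writes in rRNA, tRNA and, as reported, in mRNA. Chromosome 19 is the human chromosome most densely packed with genes, many of them short, GC-rich and expressed in most cell types, beside large clusters of zinc finger genes. It carries TGFB1 itself, the actinin gene ACTN4 and many genes of splicing, chromatin and mitochondria. Quiescent stellate cells turn into contractile, matrix-producing cells in the injured liver, and TGF-β1 is the factor most used to drive this in culture.

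The sequence around a member could be read where it fell in a RefSeq promoter window (from 250 bases before to 50 after a gene's start) or a miRNA hairpin, build GRCh38.p14. This held for 41 members, 31 in 5'UTRs and 10 in coding sequence, and at all 41 the base of the transcript strand at the printed coordinate was C. The first set below, from BSG to UBE2S, holds stretches with a cytidine listed in both tables, and in BSG a second one listed after TGF-β1 alone. The second, SUPT5H and PSENEN, holds stretches in which the listed cytidine was a different one in each table. The third, from CALR on, holds 5'UTR cytidines listed after TGF-β1 alone. Capitals mark the listed cytidines, and each stretch runs 5' to 3' on the transcript strand.
BSG (chr19:572607-572630, plus strand): gttgtaggacCggCgaggaatagg
MYDGF (chr19:4670313-4670333, minus strand): tggcggcgccCagcggagggt
BST2 (chr19:17405496-17405516, minus strand): taagcttctgCtggggatagg
SNRPD2 (chr19:45691908-45691928, minus strand): gcggaggaaaCgggagtgaac
UBE2S (chr19:55407776-55407796, minus strand): gcgcggccggCtcagtgctgc
SUPT5H (chr19:39445602-39445623, plus strand): gcagctggtaCCgaaggcggag
PSENEN (chr19:35745661-35745689, plus strand): gtagctaaggCaccCcagCcggaggaagt
CALR (chr19:12938621-12938641, plus strand): gagccgctgcCggagggtcgt
AXL (chr19:41219226-41219246, plus strand): aaggcggctgCtgggcagagc
POLR2I (chr19:36114984-36115004, minus strand): gagccgagccCgaggcggcgg
SIRT2 (chr19:38899554-38899579, minus strand): tggttggtgaCgggaCagagcggtcg

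In BSG, which encodes the membrane glycoprotein basigin, the first capital had 8.87% after TGF-β1 and 7.95% in untreated cells, and the second had 1.85% after TGF-β1 and was not listed in untreated cells. The cytidine of MYDGF, a secreted growth factor, had 4.16% after TGF-β1 and 6.05% in untreated cells. BST2, the antiviral membrane protein tetherin, had 9.06% and 2.41% at its printed cytidine. Its coding cytidine at 17403700, also listed in both tables, had 2.63% after TGF-β1 and 5.45% in untreated cells. SNRPD2, a core protein of the spliceosomal snRNPs, had 3.69% and 2.98%, and UBE2S, a ubiquitin-conjugating enzyme of mitosis, had 1.19% and 1.18%. In SUPT5H, which encodes a subunit of the elongation factor DSIF, the second of the 2 adjoining capitals was listed after TGF-β1 at 7.38% and the first in untreated cells at 4.32%. In PSENEN, a subunit of gamma-secretase, the middle capital was listed after TGF-β1 at 3.76% and the outer ones in untreated cells at 7.81% and 4.35%. The TGF-β1 table alone held the 5'UTR cytidines of CALR at 9.75%, AXL at 9.89%, POLR2I at 24.3% and SIRT2 at 15.97% and 3.88%, in the order of its capitals.

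Among the 39 members with both neighbouring bases inside a promoter window, G was the base before the listed cytidine at 22 (56.4%, 95% Wilson interval 41.0 to 70.7) and the base after it at 23 (59.0%, 43.4 to 72.9). Of the 2819 unlisted cytidines of the same strand in the same windows, 35.0% had G before and 29.9% had G after. These were counted over the whole window, most of which lies before the gene's start, while the 39 lie in annotated transcripts. Contrasts with unlisted cytidines in this paragraph therefore set transcript bases beside largely upstream ones. T stood before none of the 39, which allows a share of up to 7.69%, against 19.5% of the unlisted cytidines. Over all chromosomes, 472 listed cytidines could be read, of which 49.2% had G before, 56.8% had G after and 9.96% had T before. G before and G after were thus each common across the series, and how often both occurred together was not counted. The trinucleotide CCG with the listed base in the middle, in which ac4C of human rRNA is found, occurred at 5 of the 39 (12.8%, 5.603 to 26.7) and at 9.44% of the unlisted cytidines, a difference within counting error. Over all chromosomes it occurred at 51 of the 472 listed cytidines (10.8%) and 9.59% of unlisted ones. CCG was present on the gene strand of 92.8% of the 1917 chromosome 19 windows of this length, against 80.9% of all 35097 windows, and on either strand of 96.7% of those of chromosome 19. These windows hold only starts of genes, so they do not describe the members further inside.

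After TGF-β1 the listed positions on chromosome 19 were more than 2 times as many as in untreated cells. There were 1350 after TGF-β1 and 595 in untreated cells, a ratio of 2.27, against 1.45 over all positions and 1.38 over all positions outside the set (10385 and 7517). The set made up 11.5% of the TGF-β1 table (95% Wilson interval 10.9 to 12.1) and 7.33% of the untreated table (6.79 to 7.92). Both intervals cover counting error only, and cytidines of the same transcript share its reads. Among the 23 chromosomes with 50 or more untreated positions, chromosome 19, with its ZNF genes, had the highest ratio at 2.25. Chromosomes 22, 17 and 16 followed with 1.75, 1.66 and 1.59, and chromosome 18 had the lowest at 0.929. Per 100 coding genes of RefSeq, chromosome 19 had 94.3 positions after TGF-β1 and 41.9 in untreated cells, chromosome 17 had 95.6 and 57.5, and chromosome 22 had 79.2 and 45.2. With its ZNF genes counted, chromosome 19 thus stood close to chromosome 17 after TGF-β1 and below it in untreated cells. Of its 1451 coding genes 1201 are not ZNF genes, so its rates are higher when ZNF genes are left out.

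**Figure D1:**
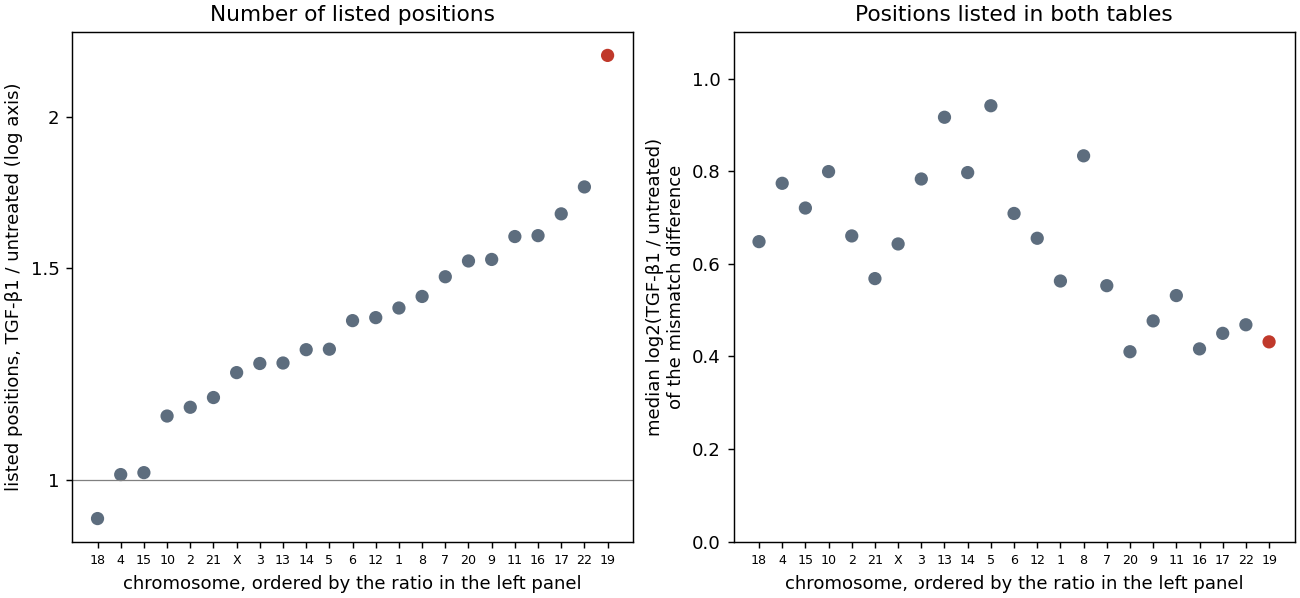
Ratio of listed positions, TGF-β1 over untreated, on a log axis (left) and the median log2 ratio of the mismatch difference at positions listed in both tables (right), with 1 point per chromosome, ordered by the left panel. Chromosome 19, in red and with its ZNF genes included, has the highest ratio of listed positions at 2.25, while its median log2 ratio of 0.43 ranks 21st of 23.

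The TGF-β1 table is the longer one, so the same count was made with that table shortened to the 8112 positions of the untreated one by lowest p-value. Chromosome 19 then had 941 positions after TGF-β1 and 595 in untreated cells, a ratio of 1.58 where all positions have a ratio of 1 by construction. The share of the shortened TGF-β1 table was 11.6%. The authors' p-values were lower after TGF-β1: at members with a mismatch difference of 5 to 10%, the median p was 1.56e-06 after TGF-β1 and 0.000135 in untreated cells, against 3.14e-06 and 0.000105 over all positions. Reads per position are not given, and the part of depth or transcript level in the counts was not tested. In RNA from a whole culture, fewer cells with a transcript and less of it per cell cannot be told apart.

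The larger ratio was present along the chromosome. In each of the 9 stretches of 5 Mb with 20 or more untreated positions, the ratio lay between 1.91 and 3. The first 5 Mb held 273 positions after TGF-β1 and 124 in untreated cells, with 196 coding genes other than ZNF genes. The stretch from 45 to 50 Mb held 240 and 106 positions with 179 such genes. Between 20 and 35 Mb, where 36 such genes lie, 18 positions were listed after TGF-β1 and 12 in untreated cells. On the plus strand 792 positions were listed after TGF-β1 and 323 in untreated cells, and on the minus strand 558 and 272. The ratio was also similar between segments of the transcript. Coding sequence had 1017 positions after TGF-β1 and 451 in untreated cells (ratio 2.25, against 1.48 over all positions). The 5'UTR had 168 and 70 (2.40, against 1.46) and the 3'UTR had 148 and 67 (2.21, against 1.37). Noncoding exons had 16 and 7 positions, where over all positions there were 191 and 220.

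Genes of chromosome 19 are short, and short genes had larger ratios elsewhere too, so genes were compared by span as the tables give it. The listed genes had a median span of 16.9 kb on chromosome 19 and 30.6 kb on the other chromosomes. In genes under 10 kb the ratio was 2.84 on chromosome 19 and 2.02 elsewhere. From 10 to 20 kb it was 2.25 and 1.86, from 20 to 40 kb 2.36 and 1.70, and from 40 to 80 kb 2.07 and 1.23. In genes of 80 kb or more chromosome 19 had 80 positions after TGF-β1 and 56 in untreated cells (ratio 1.43), and the other chromosomes had 1680 and 2231 (0.753). The ratio was thus larger on chromosome 19 in all 5 classes of span.

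Genes were also grouped by the number of coding genes within 500 kb of their middle, whose median was 31 for listed genes of chromosome 19 and 14 for those elsewhere. With fewer than 15 such genes the ratio was 1.38 on chromosome 19 (11 genes) and 1.097 elsewhere. With 15 to 29 it was 2.12 and 1.54, and with 30 to 44 it was 2.51 and 1.92. With 45 or more the order turned, with 1.95 on chromosome 19 (53 genes) and 2.24 elsewhere (227 genes). Differences between these classes have no replicate check.

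**Figure D2:**
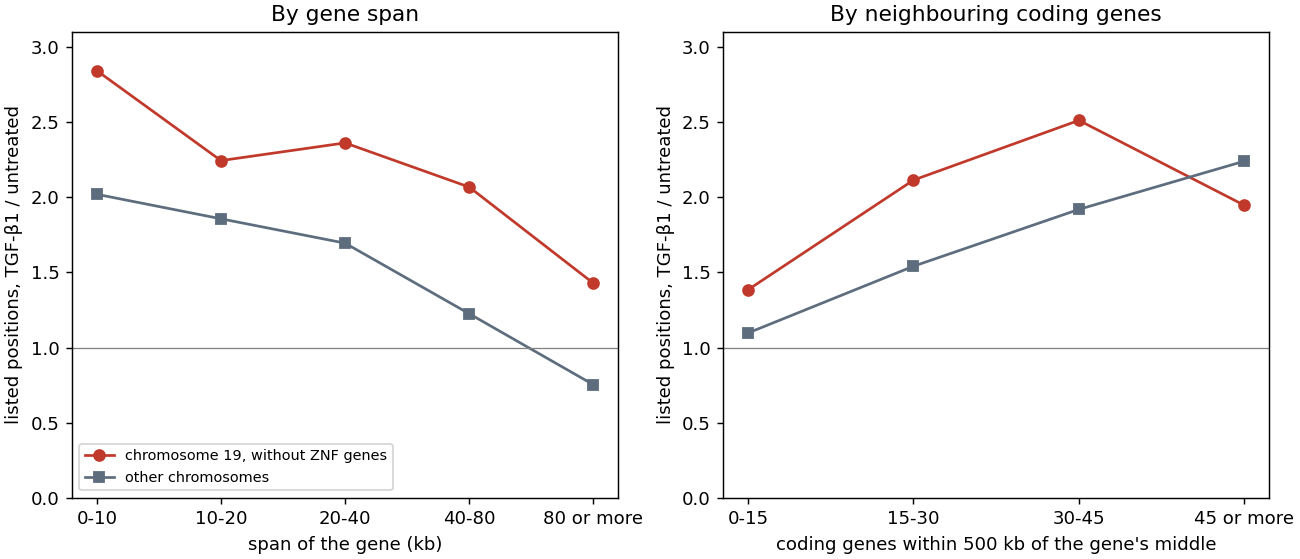
Ratio of listed positions, TGF-β1 over untreated, for genes of chromosome 19 without ZNF genes (red circles) and of all other chromosomes (grey squares), by the span of the gene in kb (left) and by the number of coding genes within 500 kb (right). The red points lie above the grey ones in every class of span, from 2.84 against 2.02 to 1.43 against 0.753, and below only where 45 or more coding genes are near, at 1.95 against 2.24.

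At cytidines listed in both groups, the values of chromosome 19 differed between the groups by about as much as, or less than, those of the series. Both tables held 212 members, which were 15.7% of the 1350 TGF-β1 members and 35.6% of the 595 untreated members. Over all positions the shares were 16.9% and 24.5%. The other 1138 TGF-β1 members were not in the untreated table (83.1% over all positions), and the other 383 untreated members were not in the TGF-β1 table (75.5% over all positions). Of the 23 chromosomes, chromosome 19 had the highest share of untreated positions listed again. It also had the most TGF-β1 positions per untreated one, and the part of this in that share was not tested. At 164 of the 212 shared members the value was higher after TGF-β1 (77.4%, 95% Wilson interval 71.3 to 82.5), where 78.4% of all shared positions were higher. Its median was 5.50% after TGF-β1 and 4.10% in untreated cells. The median of the paired differences was 1.27 points (quartiles 0.0732 and 3.44) against 1.73 points over all shared positions, and the median log2 ratio was 0.43 against 0.58. At 93 members (43.9%) the value was 1.5-fold or more higher after TGF-β1, and at 10 (4.72%) 1.5-fold or more lower, where the shares of all shared positions were 49.8% and 5.29%. Both shares lie near those of all positions.

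**Figure D3:**
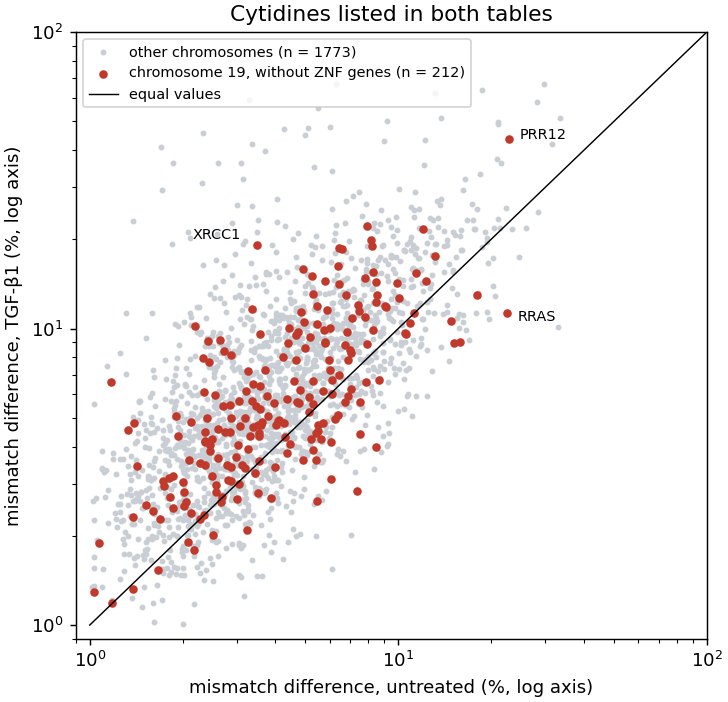
Mismatch difference in percent in untreated cells (x axis) and after TGF-β1 (y axis), both on log axes, at positions listed in both tables. Red points are the 212 members on chromosome 19, grey points the 1773 positions elsewhere, and the line marks equal values: 164 red points lie above it and 48 below.

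The shared positions fell in 142 genes. In 100 of them every shared position was higher after TGF-β1 and in 20 none was. The same was not counted over all genes, and 78.4% of all shared positions of the series were higher. Coding positions had a median difference of 1.31 points (n = 165), 5'UTR positions 1.22 (n = 34) and 3'UTR positions 1.81 (n = 11). Over all shared positions of the series these medians were 1.77, 1.45 and 1.99 points. Both shared positions in noncoding exons were lower after TGF-β1, where over all chromosomes 16 of 27 such positions were higher.

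A difference of 10 points or more upward was present at 8 of the 212 shared members, of which 7 are given here. Over all chromosomes it was present at 138 of 1985 shared positions, a larger share. PRR12, a proline-rich nuclear protein, had 43.5% after TGF-β1 and 22.9% in untreated cells at position 49616018 of chromosome 19, plus strand, in coding sequence. XRCC1, the scaffold of single-strand break repair, had 19.2% and 3.49% at 43546917 on the minus strand, also coding. MBD3, a subunit of the NuRD chromatin remodeller, had 22.3% and 7.93% in its 3'UTR at 1576973. These 3 cytidines were higher after TGF-β1 by 20.6, 15.7 and 14.3 points. CC2D1A, a regulator of signalling and endosomal sorting, had 18.6% and 6.58%, and PIH1D1, a subunit of the R2TP chaperone complex, had 19.97% and 8.17%. MEX3D, an RNA-binding protein, had 18.96% and 8.22%. ARHGEF1, a guanine nucleotide exchange factor of RhoA, had 15.9% and 4.93% in its 5'UTR at 41888075, while the adjoining cytidine at 41888076 had 6.69% and 8.65%. Neighbouring cytidines of 1 transcript thus had opposite directions.

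In the other direction the values were smaller. RRAS, a Ras-family GTPase, had 11.3% after TGF-β1 and 22.5% in untreated cells at 49640078. It was the only member with a downward difference of 10 points or more, of 2 such positions among all shared ones. The E-protein gene TCF3 had 9.01% and 15.8% at 1646357 but 5.71% and 3.36% at 1623990. CYTH2, an exchange factor for ARF GTPases, had 8.92% and 15.2%. UPF1, the helicase of nonsense-mediated decay, had 12.99% and 17.96% at 18854608, and 14.5% and 5.79% at 18855185, both coding. DNM2, the dynamin GTPase that cuts endocytic vesicles, had 10.6% and 14.8% at a 5'UTR position and 8.61% and 4.98% at one of its 2 shared coding positions. S1PR5, a sphingosine-1-phosphate receptor, SHKBP1 and PWWP3A each had 1 shared position, at 3.97% and 8.48%, 2.84% and 7.33%, and 4.40% and 7.52%. None of these values has a replicate.

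Of the members in 1 table alone, 1138 were in the TGF-β1 table and 383 in the untreated one. Their median mismatch differences were 4.31% and 4.12%, below the 5.50% of the shared members after TGF-β1 and close to the 4.10% of these in untreated cells. Among the highest in the TGF-β1 table alone were coding positions of EHD2, an ATPase of the caveolar neck, at 49.1% and of ISYNA1, the inositol phosphate synthase, at 43.1%. NR1H2, the oxysterol receptor LXR beta, had 39.3% and U2AF2, which recognises the polypyrimidine tract in splicing, had 37.7%, both in 3'UTRs. Among the highest in the untreated table alone were ILVBL at 43.3% and the NuRD subunit GATAD2A at 31.6%. FAAP24 of the Fanconi anaemia core complex had 28.2%, DPF1, a BAF complex subunit of neurons, 25.98%, and SSBP4 24.7%. Of these positions, those in NR1H2, ILVBL, DPF1 and SSBP4 carry a p-value of 0 in the deposited tables. A value of 10% or more was listed at 222 members after TGF-β1 and 66 in untreated cells, a ratio of 3.36 against 2.15 over all positions.

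Some of the members in 1 table alone lay next to a position of the other table. Within 10 bases on the same strand this held for 79 of the 1138 in the TGF-β1 table (6.94%, against 6.01% over all positions) and for 44 of the 383 in the untreated one (11.5%, against 7.30%). At 29 and 15 of these the neighbour adjoined directly, as in the SUPT5H stretch printed above. Chromosome 19 had 2.27 TGF-β1 positions per untreated one, against 1.45 over all positions. The part of this in the 11.5% was not tested.

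Counted by gene, most genes of chromosome 19 had more listed positions after TGF-β1. Of 463 genes, 336 (72.6%) had more, 70 (15.1%) had fewer and 57 had equal numbers, where 51.2% of all genes had more and 35.3% had fewer. Chromosomes 22 and 17 followed chromosome 19 in this share, at 59.6% and 58.8%. With the TGF-β1 table shortened, 257 of 423 genes on chromosome 19 had more and 117 had fewer, while of all 5648 genes 2204 had more and 2672 had fewer. Genes with 3 or more positions numbered 194 after TGF-β1 and 72 in untreated cells on chromosome 19, against 1581 and 890 over all genes. Those with 5 or more numbered 103 and 22, and those with 10 or more 17 and 0, which were not counted over all genes. In the 246 genes of both tables the ratio of positions was 1.90, against 1.54 in such genes of the whole series. A further 173 of the 463 genes were in the TGF-β1 table alone and 44 in the untreated table alone. Of all 6119 genes of the series, 1732 were in the TGF-β1 table alone and 1670 in the untreated table alone.

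**Figure D4:**
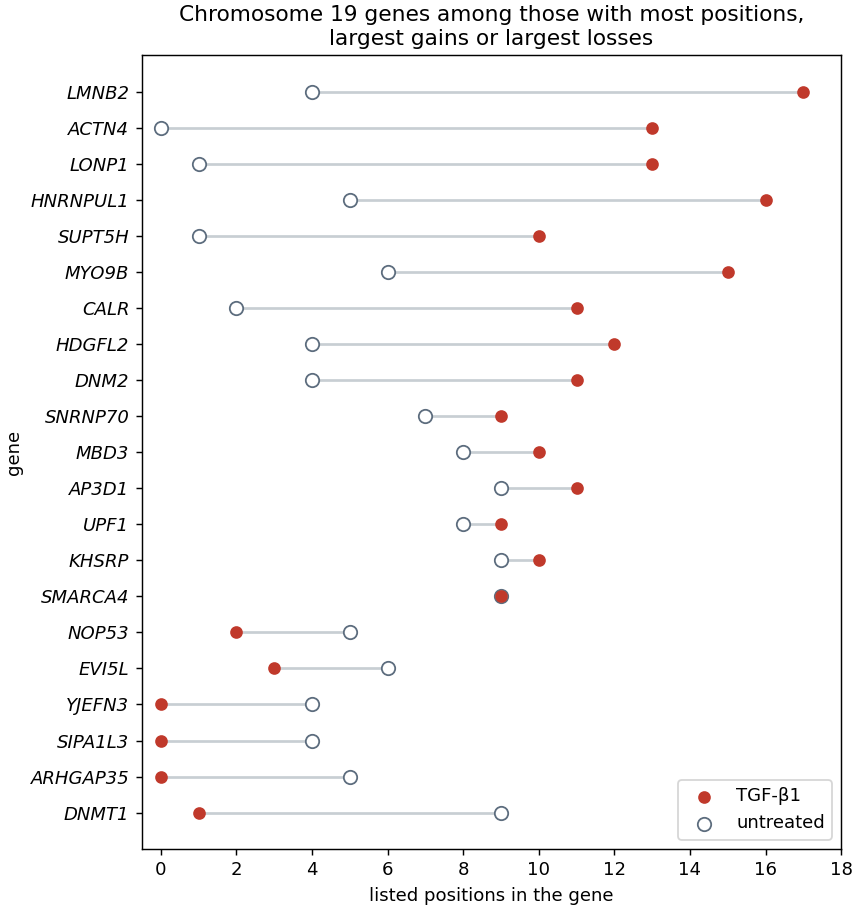
Listed positions per gene after TGF-β1 (filled red) and in untreated cells (open), for chromosome 19 genes among those with most positions or with the largest gains and losses. ACTN4 has 13 after TGF-β1 and 0 in untreated cells, SMARCA4 has 9 in both, and DNMT1 has 1 and 9.

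LMNB2, which encodes lamin B2 of the nuclear lamina, had the most listed positions after TGF-β1, with 17 after TGF-β1 and 4 in untreated cells. After TGF-β1 its values ran from 1.35 to 7.32%. Of its 2 shared positions, the one at 2456698 had 2.81% and 2.01% and the one at 2430222, in the 3'UTR, had 5.66% and 7.52%. HNRNPUL1, an hnRNP protein, had 16 after TGF-β1 and 5 in untreated cells, and its 3 shared positions had 11.97% and 7.40%, 5.96% and 2.56%, and 6.97% and 6.41%. MYO9B, a myosin with a RhoGAP domain, had 15 and 6 positions, and all 3 shared ones were higher after TGF-β1. In both HNRNPUL1 and MYO9B a cytidine adjoining a shared one was listed after TGF-β1 alone. HDGFL2, a histone-binding PWWP protein, had 12 and 4 positions.

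Several genes had most or all of their positions after TGF-β1. ACTN4, the nonmuscle actin crosslinker actinin-4, had 13 after TGF-β1 and 0 in untreated cells, spread from the 5'UTR at 38647728 to the coding position 38728021. Its values ran from 1.23 to 14.8%, the highest at 38706050. LONP1, the protease of the mitochondrial matrix, had 13 and 1, with values from 2.002 to 8.77% after TGF-β1 and 1.66% in untreated cells. SUPT5H had 10 and 1, and CALR, the chaperone calreticulin of the endoplasmic reticulum, had 11 and 2, of which the shared one at 12940770 had 15.4% and 11.4%.

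The largest losses were smaller than the largest gains. DNMT1, the maintenance DNA methyltransferase, had 1 position after TGF-β1, at 1.94%, and 9 in untreated cells, from 1.23 to 14.3%. None of these 10 was shared. ARHGAP35, which encodes p190RhoGAP, had 0 and 5 positions, 4 of them in the 3'UTR and with values from 3.51 to 11.9%. SIPA1L3 had 0 and 4 coding positions between 1.83 and 3.70%, and YJEFN3 had 0 and 4 in its 3'UTR. NOP53, a ribosome assembly factor, had 2 and 5. EVI5L, a Rab GTPase-activating protein, had 3 and 6, and its 3 shared positions were each higher after TGF-β1. More than 5 positions were gained by 32 genes and lost by 1, DNMT1. The same was not counted over all genes, and the TGF-β1 table is the longer one.

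Genes of known function were grouped into 11 lists, which hold 259 of the 463 genes. Some genes are in several lists, and their positions count in each. At positions in both tables, the value was higher after TGF-β1 at 77.4% of all shared members and 78.4% of all shared positions, and the lists' counts, most of them over few positions, are to be read beside these shares. The lists were chosen with earlier results of these data known and their ratios are descriptions, to be read beside 2.27 for the whole set. The lists' counts of genes having more or fewer positions are to be read beside the shares of all 463 genes, 72.6% and 15.1%. Over all genes of the series these shares were 51.2% and 35.3%. In every list the ratio was above the 1.45 of all positions. The 204 genes in no list had 473 positions after TGF-β1 and 228 in untreated cells (2.07), with 135 having more and 43 fewer.

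Mitochondrial and metabolic genes had the largest ratio of these lists. They had 94 positions after TGF-β1 and 23 in untreated cells (4.09), with 27 of 31 genes having more and 1, the matrix protease subunit CLPP with 1 and 2, having fewer. Beside LONP1, TOMM40, the import channel of the outer membrane, had 8 and 1, TIMM44 of the inner membrane import motor 5 and 1, and PRDX2, a peroxiredoxin, 5 and 0. GPI, a glycolytic isomerase, had 6 and 3, and ETFB of fatty acid oxidation had 4 and 4. GPX4, the lipid peroxide reductase, had 5 and 2 with both shared positions higher. Both tables held 9 positions of these genes, 6 of them with the higher value after TGF-β1, and the median log2 ratio was 0.33, against 0.43 for all shared members.

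Ribosomal protein genes of chromosome 19, listed together with FBL, the rRNA methyltransferase fibrillarin, had 36 positions after TGF-β1 and 11 in untreated cells (3.27), and 2.64 without FBL, which had 7 and 0. RPL18 and RPS9 each had 4 and 1. All 5 shared positions had the higher value after TGF-β1. The list of translation, tRNA and mRNA turnover genes had 67 and 29 positions (2.31), with 14 of 17 genes having more and 3 fewer. EEF2, the elongation factor that moves the ribosome along mRNA, had 9 and 4, EIF3G 4 and 1 and EIF3K 4 and 0. Some members with many positions were not translation factors proper: UPF1 had 9 and 8, and STRN4, a striatin of the STRIPAK phosphatase complex, had 11 and 3. The value after TGF-β1 was the higher one at 13 of the 14 positions in both tables.

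Genes of matrix, adhesion and TGF-β ligands had 46 positions after TGF-β1 and 15 in untreated cells (3.07), and 12 of 15 had more. Of their 2 shared positions 1 had the higher value after TGF-β1. TGFB1, the gene of the stimulus itself, had 9 and 4. Its values ran from 1.51 to 10.5% after TGF-β1, the highest in the 3'UTR at 41330536, and from 3.50 to 8.36% in untreated cells. The shared TGFB1 position, coding position 41352927 on the minus strand, had 2.80% and 3.50%. The nectin-family adhesion genes NECTIN2 and PVR each had 7 and 1. LTBP4, which binds latent TGF-β, had 2 and 0, and FSTL3, an extracellular antagonist of activin, had 3 and 0. BSG had 4 and 2, the adhesion receptor ADGRE5 3 and 1, EMP3 and BCAM 2 and 1 each, and ANGPTL4 2 and 0. APLP1 with 2 and 2 and ICAM1 with 1 and 1 had equal numbers, CLEC11A and ICAM3 had 1 and 0, and ADGRL1 had 0 and 1.

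Cytoskeletal genes had 97 positions after TGF-β1 and 40 in untreated cells (2.43), with 19 of 23 genes having more and 2, ARHGAP35 and PALM, fewer. The value was higher after TGF-β1 at 8 of their 12 shared positions. After MYO9B and ACTN4, VASP, an actin polymerase, had 7 and 1, CNN2, a calponin, 7 and 3, and PPP1R12C, a myosin phosphatase subunit, 6 and 3. DAPK3, a kinase of myosin light chains, had 5 and 5, and TPM4, a tropomyosin, had 2 and 1. Receptors and signalling genes had 143 and 48 (2.98), with 29 of 37 having more and 4 fewer. AXL, a receptor tyrosine kinase for GAS6, had 8 and 2, and none of its positions was shared. GNA11, a G protein alpha subunit, had 9 and 2, PPP5C, a phosphatase, 9 and 1, and the kinase MAP2K2 8 and 3. Among those with fewer were SIPA1L3, RRAS with 1 and 3, and the receptor phosphatase PTPRS with 0 and 1. Of the 19 shared positions in signalling genes 17 were higher, and their median difference was 0.743 points.

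Splicing and chromatin genes had the smallest ratios of the 11 lists. Splicing and other RNA-binding genes had 115 positions after TGF-β1 and 59 in untreated cells (1.95), with 21 of 27 having more and 4 fewer, and 15 of their 22 positions in both tables had the higher value after TGF-β1. KHSRP, an AU-rich element binding protein, had 10 and 9, of which 1 was shared. SNRNP70, the U1 snRNP protein, had 9 and 7, HNRNPL 8 and 7, and HNRNPM 7 and 1. Transcription and chromatin genes had 141 and 81 (1.74), with 31 of 43 having more and 7 fewer, and 23 of their 26 positions in both tables had the higher value after TGF-β1. SMARCA4, the ATPase BRG1 of SWI/SNF, had 9 positions in each table, of which 3 were shared, at 3.90% and 5.30%, 3.18% and 2.49%, and 6.20% and 4.80%. MBD3 had 10 and 8 with all 4 shared ones higher, CHAF1A, the histone chaperone subunit, had 9 and 4, and CIC, a repressor, had 6 and 5. Beside DNMT1, the H3K4 methyltransferase KMT2B had fewer positions, with 1 and 3, and DOT1L and MED25 had 0 and 2 each.

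The other lists stood near the whole set. Secretory genes had 102 positions after TGF-β1 and 44 in untreated cells (2.32), with 22 of 29 genes having more and 4 fewer, and 13 of 18 shared positions had the higher value after TGF-β1. AP3D1, a subunit of the AP-3 adaptor, had 11 and 9 with all 4 shared ones higher, with 16.3% after TGF-β1 and 6.38% in untreated cells at 2115602. DNM2 had 11 and 4, and CLPTM1 had 6 and 5. The list of replication and repair genes had 45 and 18 (2.50), with 10 of 14 having more and 0 fewer. POLD1, the catalytic subunit of polymerase delta, had 6 and 1. Some members with many positions were not replication or repair genes proper. CDC37, a kinase cochaperone, had 6 and 2, SAE1 of the SUMO-activating enzyme had 4 and 3, and UBE2S had 4 in each table. SAE1 and UBE2S are also in the ubiquitin list. Of the 10 shared positions in this list 9 had the higher value after TGF-β1. Ubiquitin and apoptosis genes had 53 and 22 (2.41), with 14 of 18 having more and 0 fewer, and 8 of 9 shared positions had the higher value after TGF-β1. PSMC4, a proteasome ATPase, had 7 and 1, OAZ1, the ornithine decarboxylase antizyme, 6 and 4, and PPP1R15A, the stress-induced phosphatase subunit GADD34, 7 and 2.

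**Figure D5:**
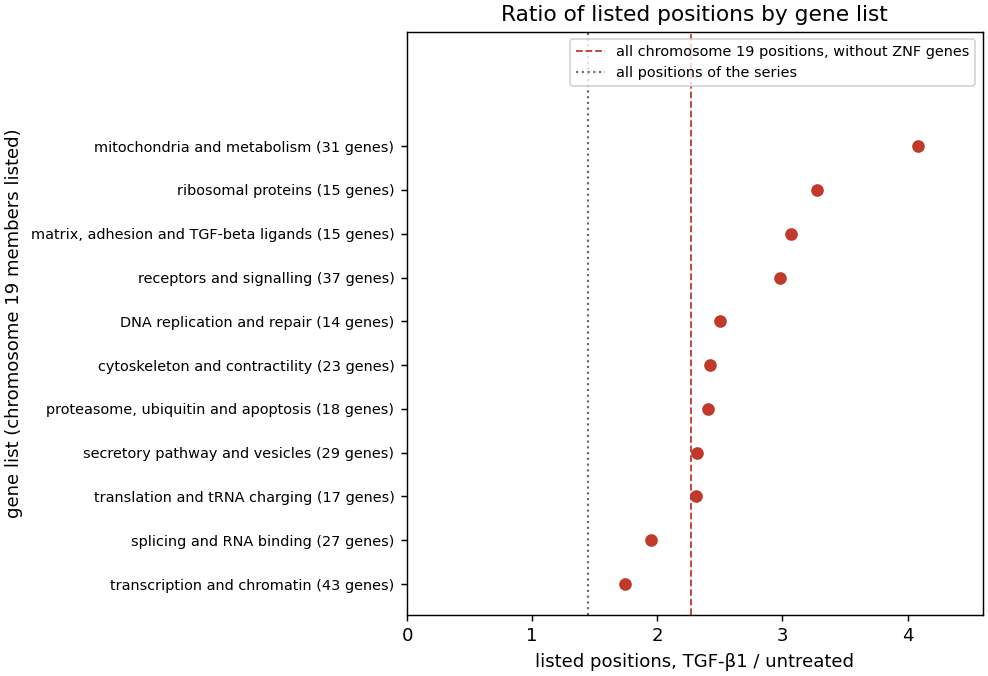
Ratio of listed positions, TGF-β1 over untreated, for the listed chromosome 19 members of each gene list, with the dashed line at 2.27 for all members and the dotted line at 1.45 for all positions of the series. All 11 points lie right of the dotted line, from 1.74 for transcription and chromatin to 4.09 for mitochondria and metabolism.

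For the series as a whole, the tables held 11735 positions after TGF-β1 and 8112 in untreated cells, with no mismatch difference below 1.00% and a highest p-value of 0.04999. Of 7 stellate and mesenchymal marker genes 6 had a listed position, among them COL1A1 with 10 after TGF-β1 and 4 in untreated cells, and COL1A2 had none. Of 13 markers of hepatocytes, endothelium, macrophages and biliary epithelium, CD68 alone was listed, with 2 and 3. A gene without a listed position is not thereby unexpressed.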

How the data were processed

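Per the labels' protocols, polyadenylated RNA was captured with beads from total RNA of LX-2 cells. STAR 2.7.6a, fastp 0.23.1, featureCounts and the build hg38 are named, without their roles, per the submitters' processing notes. How positions were called and filtered, and how a group's 2 libraries became 1 table, is not given in the sources used here. Each deposited table holds a fraction named diff, whose terms are not stated, and a p-value, per the file headers. Whether the p-value was adjusted is not stated.

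Lines were merged by identifier, with the segment taken in the order coding, 5'UTR, 3'UTR, noncoding exon, intron. Positions in several genes (33 after TGF-β1, 13 untreated) count once among positions and once per gene. A member annotated also to a ZNF gene was kept (1 in each table). The printed coordinate is the end column. At all 482 positions inside RefSeq windows or hairpins it was a C on the listed strand, and the start column at 78. Of 463 genes, 445 had a name in RefSeq (GRCh38.p14), which gave coding genes and windows. Reads and values per library are not given, so depth is unknown, the model over libraries that reads would have allowed was not possible, and counts and medians are given without a test. The members, lists and named genes (88, by rules on position number, size of difference, and list) were chosen with earlier results of these data known. A few genes outside the rule whose sequence or low count is shown were chosen after their values were seen. Several genes that fall under these rules were left out of the text. The computation of counts and medians was checked on simulated tables with known answers. Python 3.11.15, pandas 2.3.3, numpy 2.4.6, scipy 1.17.1 and matplotlib 3.10.9 were used. Alternatives were stricter p and size limits, a shortened table, and other ways of counting.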

Additional observations from a re-analysis of the deposited data

How the results depend on the processing

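No paired analysis was possible because the tables hold 1 value per group, and no replicate could be left out. Of 83 values recomputed under an alternative, 69 stayed within their limits (a count within 1.5 times, another value within the 95% counting interval of its main value). Direction was defined only for ratios, set against 1, and for the differences and the share higher at shared members. None of these changed direction. The ratio of chromosome 19 positions was 2.27, against 1.45 over all positions, and both were larger under stricter limits. They were 2.72 and 1.76 at p below 0.001 (345 untreated members), 2.502 and 1.74 at a mismatch difference of 5% or more (603 members after TGF-β1 and 241 untreated), and 3.36 and 2.15 at 10% or more (222 and 66). With the TGF-β1 table shortened to equal length they were 1.58 and 1. At 10% or more the chromosome's share of the tables was 10.2% after TGF-β1 and 6.54% in untreated cells. Shared members numbered 119 at p below 0.001 and 130 with 5% or more in either table, against 212, and 79.8% and 76.2% of them were higher after TGF-β1. Genes with fewer positions numbered 117 with the shortened table, against 70. The counts are lower where an alternative keeps fewer positions, and the cause of the other shifts was not tested. Counting positions per gene, putting ZNF genes back, and leaving out p-values of 0 or positions of several genes left the ratio between 2.22 and 2.28. With 1 position per gene the median log2 ratio was 0.43, and with the median of each gene 0.42. Leaving out the gene with most positions moved no list's ratio by as much as 1.5 times. Depth is unknown, so absence from a table cannot be told from low coverage.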
